A study of Mus musculus with 6 samples.

Results

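The genes described here write, copy, read and erase DNA methylation: the methyltransferase genes Dnmt1, Dnmt3a and Dnmt3b, the hemimethylated-DNA readers Uhrf1 and Uhrf2, the Tet dioxygenase genes Tet1, Tet2 and Tet3, and the methyl-CpG reader Mbd2. They were picked by name as silencing machinery, not by their values in these libraries, and all 9 were found among the 47593 gene rows of the deposited table. Total RNA was sequenced from mouse femur marrow cells selected for c-Kit, a receptor tyrosine kinase found on blood progenitors. All cells carried MLL-AF9, a leukaemia fusion of the histone methyltransferase MLL with AF9, delivered by the retrovirus MSCVneo, and had been selected on G418 and passaged serially in methylcellulose with cytokines. The groups were 3 libraries with the E531R substitution in the AF9 part of the fusion and 3 with the unchanged fusion (WT), 6 in all. By its title, the series asks which transcripts change when AF9 no longer binds BCOR, a subunit of a variant Polycomb complex. Cells without the fusion were not analysed here, the sources used here give no strain or age, and do not say if replicates came from separate cultures or mice, so p-values measure the spread between these libraries, which may be technical.

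In mammals, DNMT3A and DNMT3B place methyl groups on cytosines of CpG dinucleotides that carry none, and DNMT1 copies the pattern onto the new strand after replication, guided by UHRF1, which binds the hemimethylated site. TET enzymes oxidise the methyl group, after which it is lost by dilution or by base excision repair, and MBD2 brings the NuRD histone deacetylase complex to methylated CpG islands. In blood, DNMT3A and TET2 are among the genes most often mutated in clonal haematopoiesis and myeloid leukaemia.

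The promoter windows of the genes whose levels carry the main results are shown because CpG is the substrate of the proteins these genes encode, and because Dnmt3a has starts far apart that a count per gene adds together. Each is the 250 bases before a RefSeq start on build GRCm38.p6, read 5′ to 3′ along the gene, with every CpG in capitals. The Dnmt3a windows shown, 2 of its 3, lie before the first of a pair of upstream starts at chr12:3806730-3806979 (plus strand) and before its downstream start, which gives the shorter DNMT3A2 protein, at chr12:3891494-3891743 (plus strand). The Dnmt3b window lies at chr2:153649199-153649448 (plus strand), outside the annotated gene, and the Tet3 window at chr6:83441679-83441928 (minus strand). The Tet3 window and both Dnmt3a windows shown lie inside the annotated gene. The downstream Dnmt3a window has 16 bases in annotated exon, and the upstream one and the Tet3 window have 0.

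Dnmt3a upstream: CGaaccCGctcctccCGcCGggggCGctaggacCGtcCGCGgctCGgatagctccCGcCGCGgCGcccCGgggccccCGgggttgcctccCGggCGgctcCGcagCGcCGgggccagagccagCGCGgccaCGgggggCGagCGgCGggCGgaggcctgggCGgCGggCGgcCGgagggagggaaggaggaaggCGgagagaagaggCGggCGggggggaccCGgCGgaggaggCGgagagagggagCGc
Dnmt3a downstream: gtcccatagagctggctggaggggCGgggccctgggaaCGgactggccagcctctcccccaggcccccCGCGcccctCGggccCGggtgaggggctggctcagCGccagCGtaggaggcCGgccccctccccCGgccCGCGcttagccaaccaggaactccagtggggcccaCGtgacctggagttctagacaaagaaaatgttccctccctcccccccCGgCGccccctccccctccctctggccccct
Dnmt3b: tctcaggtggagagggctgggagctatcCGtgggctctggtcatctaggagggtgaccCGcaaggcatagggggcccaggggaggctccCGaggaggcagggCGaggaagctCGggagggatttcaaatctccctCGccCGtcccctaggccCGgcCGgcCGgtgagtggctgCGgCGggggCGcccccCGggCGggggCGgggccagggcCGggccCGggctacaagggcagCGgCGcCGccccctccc
Tet3: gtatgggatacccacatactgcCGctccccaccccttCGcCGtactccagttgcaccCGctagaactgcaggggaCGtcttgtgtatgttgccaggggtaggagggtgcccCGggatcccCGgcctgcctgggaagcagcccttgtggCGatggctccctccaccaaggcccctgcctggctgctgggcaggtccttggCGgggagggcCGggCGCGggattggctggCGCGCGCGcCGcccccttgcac

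The upstream Dnmt3a window held 38 CpGs and the downstream one 15, while the window not shown, at chr12:3806910-3807159, held 40 and overlaps the upstream one. There were 21 CpGs in the Dnmt3b window and 17 in the Tet3 window. The median over 32851 RefSeq promoter windows of the same length was 6, with quartiles of 2 and 16. The window of Tet2 held 51, more than 99.9% of all windows. RefSeq gave 13 such windows for 8 of the 9 genes. In the annotation (GRCm38) Dnmt1 spans 20907209 to 20959888 on chromosome 9, Uhrf1 56303321 to 56323486 on chromosome 17 and Uhrf2 30030513 to 30093722 on chromosome 19. Tet1 spans 62804570 to 62908996 on chromosome 10, Tet2 133463679 to 133545139 on chromosome 3 and Mbd2 70568189 to 70626131 on chromosome 18.

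Reads assigned to genes numbered 33459668, 23755210 and 24237823 in E531R replicates 1, 2 and 3, against 14161139, 19690545 and 30597351 in WT replicates 1, 2 and 3. The 9 genes had between 71 (Tet1, WT replicate 1) and 24884 reads (Dnmt1, E531R replicate 1) in a library, and all passed the minimum mean of 10 for testing. WT replicate 3 stood apart: 1112 of 12991 tested genes lay at least 1 log2 unit below the mean of the other WT libraries, against at most 110 genes for any other library within its own group. Its departure ran with GC content (Spearman rho 0.62 across 12569 genes, which share the libraries and are not independent replicates). The departure of single E531R libraries from their group gave rho between -0.19 and 0.22. Results of the 9 genes below are therefore also given without WT replicate 3 where a call or a value changes. For the other lists, counts of called genes are given without it where they change. Of 6 markers of early blood cells, 2 (Cd34 and Spi1) were higher, 1 (Gata2) was lower and Kit did not pass. Without WT replicate 3, Kit, Myb and Ptprc were lower too, at log2 fold changes of -0.11, -0.44 and -0.10, which gave 2 higher and 4 lower. Over all tested genes 10.4% were higher and 9.53% lower at a limma adjusted p under 0.05. Without WT replicate 3 these shares were 24.3% and 23.1%. They are the background for each count of markers here. Markers of maturing myeloid cells moved with the groups: 10 of 10 neutrophil markers were higher in E531R, with summed normalised read counts of 72914 to 80403 in E531R and 7337 to 9844 in WT libraries. Of 8 tested monocyte and macrophage markers 7 were higher, and C1qa and C1qb were at or near 0. Their sums were 34366 to 38236 in E531R and 22464 to 30368 in WT libraries. Most of each sum was Ly6c2, the marker that did not pass, with means of 22415 in E531R and 22715 in WT. Without WT replicate 3 Ly6c2 passed as higher too, at 0.13 on the log2 scale (limma adjusted p = 0.0215). With all libraries the other 7 had log2 fold changes of 1.18 (Cd14) to 5.08 (Mrc1). The part of this shift in the results below was not tested, and in bulk RNA fewer cells of a type and less RNA per cell cannot be told apart. Of 18 markers of lymphoid, erythroid, stromal and endothelial cells, 5 could be tested, and Pecam1, an adhesion molecule also present on myeloid cells, was lower. Of these 5, 1 was higher and 2 were lower without WT replicate 3.

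Of the 9 genes, 2 rose in E531R cells, Dnmt3a and Tet3, and 0 fell, at an adjusted p under 0.05 in limma's test over all genes. Over all 12991 tested genes the same test called 19.9% in either direction, 10.4% higher and 9.53% lower, so the count for these genes is near that background. At an unadjusted p under 0.05, 2 were higher and 1, Dnmt3b, was lower, where 32.7% of all tested genes reached that level, 16.2% higher and 16.5% lower. On the recovered reads, edgeR, DESeq2 and limma voom also called 2 higher and 0 lower. Without WT replicate 3, 4 of the 9 were higher and 3 lower, where 47.4% of all tested genes were called, 24.3% higher and 23.1% lower. The median log2 fold change of the 9 was 0.10, against 0.01 over all tested genes.

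**Figure D1:**
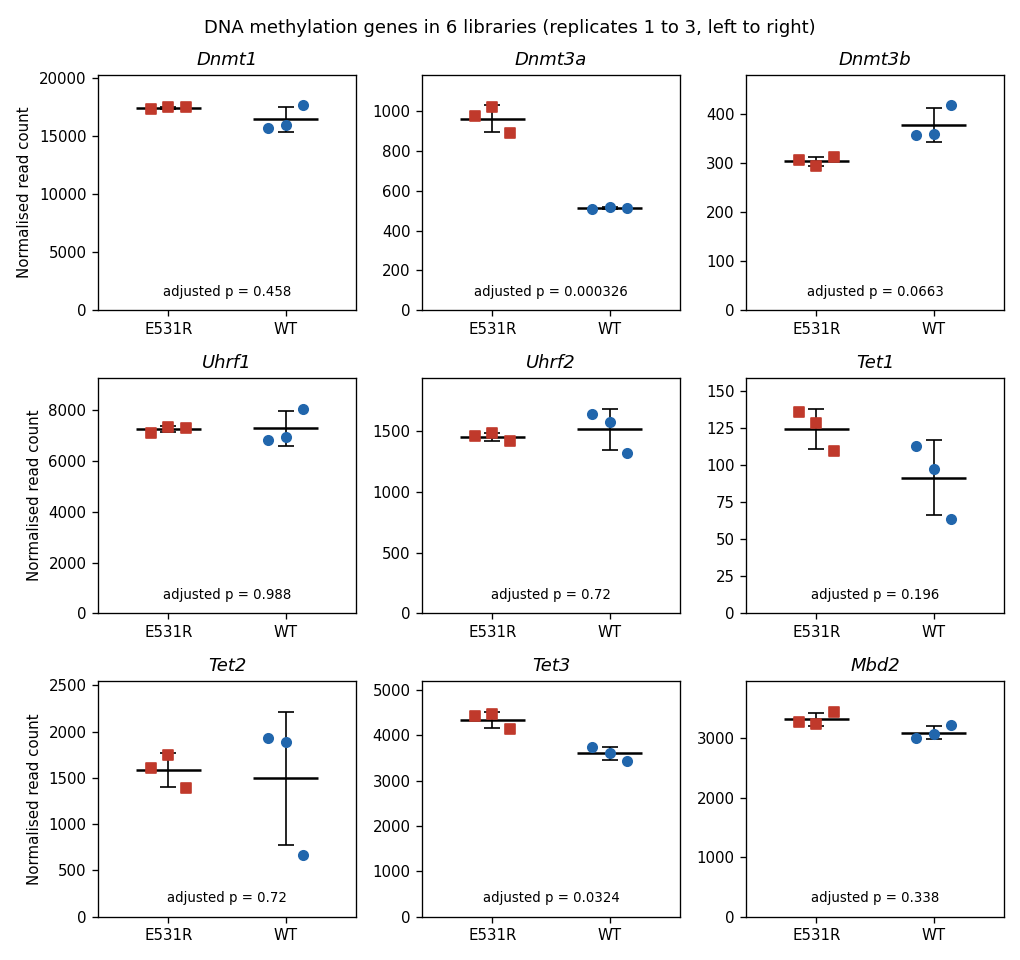
Normalised read count of each of the 9 genes on linear y axes that start at 0, with 1 point per library (red squares E531R, blue circles WT, replicates 1 to 3 from left to right), horizontal bars at the means and error bars of 1 SD. The E531R values of Dnmt3a, 889 to 1022, lie above all WT values of 509 to 518, and the Tet2 value of WT replicate 3, 664, lies far below those of the other WT libraries.

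Among the writers, Dnmt3a, the de novo methyltransferase of blood stem cells, changed most. On chromosome 12 (3806007 to 3914443, GRCm38), it had normalised read counts of 975, 1022 and 889 in E531R replicates 1, 2 and 3, against 509, 518 and 515 in WT replicates 1, 2 and 3. All E531R libraries lay above all WT libraries, and the WT libraries, replicate 3 included, lay within 10 counts of each other. The means were 962 ± 67.5 in E531R and 514 ± 4.36 in WT (SD, n = 3 each), a 1.87-fold rise with a log2 fold change of 0.90 (SE 0.079, 95% interval 0.71 to 1.09; limma adjusted p = 0.000326). The authors' deposited table gives it a log2 fold change of 0.88 in the same direction with an adjusted p of 6.47e-11. Its antisense neighbour Dnmt3aos had 0 reads in every library. A count per gene cannot tell the upstream starts from the downstream one, so the proteins behind the rise cannot be told apart here.

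Dnmt3b, the other de novo enzyme, lay on the opposite side. This gene on chromosome 2 (153649450 to 153687730) had 306, 294 and 312 in E531R replicates 1, 2 and 3, against 358, 358 and 417 in WT replicates 1, 2 and 3. The groups did not overlap, with the E531R libraries below, but the difference did not pass: means of 304 ± 8.98 in E531R and 378 ± 34.3 in WT (SD, n = 3 each) gave a log2 fold change of -0.31 (95% interval -0.54 to -0.08; limma adjusted p = 0.0663). It passed as lower without WT replicate 3, at -0.24 (limma adjusted p = 0.0206), and with limma array weights, upper-quartile rescaling and the GC and length trend removed (limma adjusted p = 0.00552, 0.0432 and 0.0144). In the other 14 of 18 alternatives it did not pass, DESeq2, edgeR and limma voom among them (adjusted p = 0.114, 0.0607 and 0.054). The authors' deposited table gives it a log2 fold change of -0.31 with an adjusted p of 0.159.

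Within each library the relation of these de novo genes does not depend on how libraries are scaled. Reads of Dnmt3a per read of Dnmt3b, a ratio chosen after the values were seen, were 3.19, 3.48 and 2.85 in E531R replicates 1, 2 and 3, against 1.42, 1.45 and 1.23 in WT replicates 1, 2 and 3. Every E531R ratio lay above every WT ratio, with means of 3.17 ± 0.312 in E531R and 1.37 ± 0.116 in WT (SD, n = 3 each; exact permutation test, two-sided, p = 0.1, the smallest that 3 against 3 allows). The ratio shows unequal change of the pair, not which gene changed. Every E531R library lay above every WT library in Dnmt3a and below in Dnmt3b, so this separation and its p-value were fixed in advance. They add no evidence beyond the values of each gene.

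Dnmt1, the maintenance enzyme and the most abundant of the 3 methyltransferase transcripts, had 17292, 17488 and 17481 in E531R replicates 1, 2 and 3, against 15673, 15972 and 17618 in WT replicates 1, 2 and 3. The groups overlapped through WT replicate 3, the highest of all. The log2 fold change was 0.09 (95% interval -0.09 to 0.26; limma adjusted p = 0.458), and without WT replicate 3 it was 0.14 and passed (limma adjusted p = 0.00397). Per kb of exon Dnmt1 made up 95.3% ± 0.110 of the summed methyltransferase level in E531R and 95.5% ± 0.0276 in WT, while Dnmt3a made up 2.33% ± 0.163 in E531R and 1.33% ± 0.0790 in WT and Dnmt3b 2.40% ± 0.0770 in E531R and 3.17% ± 0.0884 in WT (SD, n = 3 each; exact permutation test, two-sided, p = 0.1 for each, the smallest possible). The size of these shares depends on the division by exon length: without it, the E531R minus WT difference was -1.62 percentage points for Dnmt1, 2.17 for Dnmt3a and -0.55 for Dnmt3b, against -0.23, 1.00 and -0.77 with it.

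**Figure D2:**
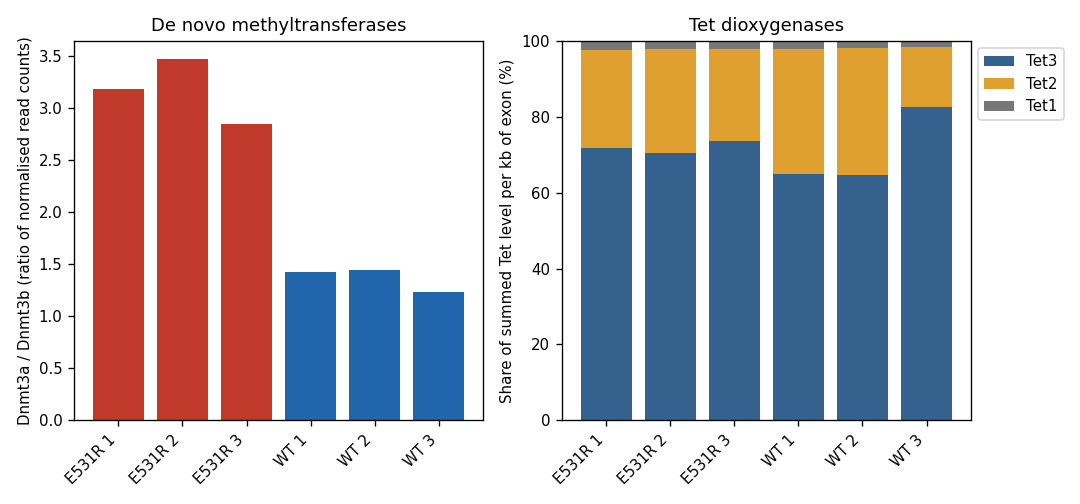
Left, ratio of the normalised read counts of Dnmt3a to Dnmt3b in each library, with bars from 0 (red E531R, blue WT): 2.85 to 3.48 in E531R and 1.23 to 1.45 in WT. Right, share of Tet3, Tet2 and Tet1 in the summed Tet level per kb of exon in each library, in percent; WT replicate 3 has the smallest Tet2 share, 15.8%.

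Uhrf1, the reader that guides DNMT1 to newly replicated DNA, had 7104, 7347 and 7287 in E531R replicates 1, 2 and 3, against 6821, 6955 and 8056 in WT replicates 1, 2 and 3. The E531R libraries lay inside the WT range, and the difference was -0.0023 on the log2 scale with a 95% interval of -0.20 to 0.19 (limma adjusted p = 0.988). Only WT replicate 3 lay above the E531R libraries, and WT replicates 1 and 2 lay below them all. Without WT replicate 3 the difference was 0.073 and did not pass (limma adjusted p = 0.105). Uhrf2, its relative with a less settled part in methylation, had 1459, 1481 and 1417 in E531R replicates 1, 2 and 3, against 1644, 1579 and 1322 in WT replicates 1, 2 and 3. Here too WT spanned the E531R values (log2 fold change -0.05, 95% interval -0.28 to 0.17; limma adjusted p = 0.72), and without WT replicate 3 it was lower in E531R, at -0.15 (limma adjusted p = 0.0114).

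Dnmt1 and Uhrf1 are genes of dividing cells. Of 30 S phase genes, such as the Mcm helicase subunits, 0 passed in either direction (median log2 fold change 0.02). Without WT replicate 3 the median was 0.07, and 10 of the 30 were higher and 2 lower. In that setting 24.3% of all tested genes were higher and 23.1% lower. Both Dnmt1 and Uhrf1 have an E2F-type motif, TTTCGCGC, in 1 promoter window. Each of these windows lies inside the annotated gene, with 166 of its 250 bases in annotated exon for Dnmt1 and 0 for Uhrf1. The other windows of Dnmt1 and Uhrf1 had no motif. The short stretches around the motif are shown with the motif in capitals. They are from chr9:20952825-20952852 (minus strand, motif as its reverse complement) and chr17:56304118-56304145 (plus strand), GRCm38.p6.

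Dnmt1: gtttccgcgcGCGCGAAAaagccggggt
Uhrf1: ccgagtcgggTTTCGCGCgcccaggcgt

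Searched on both strands were TTTGGCGC, TTTCCCGC and TTTCGCGC, whose matches may overlap one another. At least 1 of them was in 2 of the 13 windows of these genes and in 1.53% of all windows, and TTTCGCGC in 0.256% of all windows. All windows are not matched to these for CpG content, and TTTCGCGC itself holds CpGs. The Dnmt1 and Uhrf1 windows with the motif held 26 and 30 CpGs, against a median of 6. The share in windows of like CpG content was not tested, and some of the 13 windows belong to the same gene. These letters are a description of the windows, not sites of binding.

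Tet3, an eraser highest of its family here, was the other gene to pass. Located on chromosome 6 (83362373 to 83459084), it had 4420, 4470 and 4149 in E531R replicates 1, 2 and 3, against 3748, 3608 and 3444 in WT replicates 1, 2 and 3. The groups did not overlap, and the mean of 4346 ± 173 in E531R was 1.21 times that of 3600 ± 152 in WT (SD, n = 3 each; 0.27 on the log2 scale, SE 0.068, 95% interval 0.11 to 0.43; limma adjusted p = 0.0324). The call was narrow: without E531R replicate 1, 2 or 3 the limma adjusted p was 0.157, 0.163 or 0.0776, and without WT replicate 1 or 2 it was 0.0661 or 0.0782, with log2 fold changes of 0.25 to 0.30. Without WT replicate 3 it was 0.000139, and in the authors' deposited table the adjusted p is 0.0684.

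Tet2, the eraser most tied to myeloid disease, depended on 1 library. It had 1604, 1750 and 1384 in E531R replicates 1, 2 and 3, against 1930, 1886 and 664 in WT replicates 1, 2 and 3. WT replicates 1 and 2 lay above all E531R libraries and WT replicate 3 lay below them all, at 34.8% of the mean of the other WT libraries. Over all libraries the log2 fold change was 0.23 with a 95% interval of -0.72 to 1.18 (limma adjusted p = 0.72), and without WT replicate 3 it turned to -0.28 and passed as lower in E531R (limma adjusted p = 0.00333). No direction for Tet2 held both with and without that library. Gm42567, annotated antisense to Tet2, had 0 to 3 reads in a library.

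On the log2 scale Tet2 in WT replicate 3 stood at -1.52 relative to the mean of the other WT libraries, lower than in all but 3.43% of tested genes. Its longest transcript has 45.4% GC, and the 1259 tested genes within 1 percentage point of that GC content had a median departure of -0.13, with quartiles of -0.44 and 0.10. With the trend on GC content and length removed from each library, Tet2 was 846 in WT replicate 3, against 1790 and 1748 in WT replicates 1 and 2. The gap was smaller but still present after that removal. Of the 9 genes, 8 had WT replicate 3 outside the range of the other WT libraries, 4 above and 4 below, and Dnmt3a was the exception. The share of all tested genes outside that range was not counted, so this count shows nothing particular to the 9 genes.

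**Figure D3:**
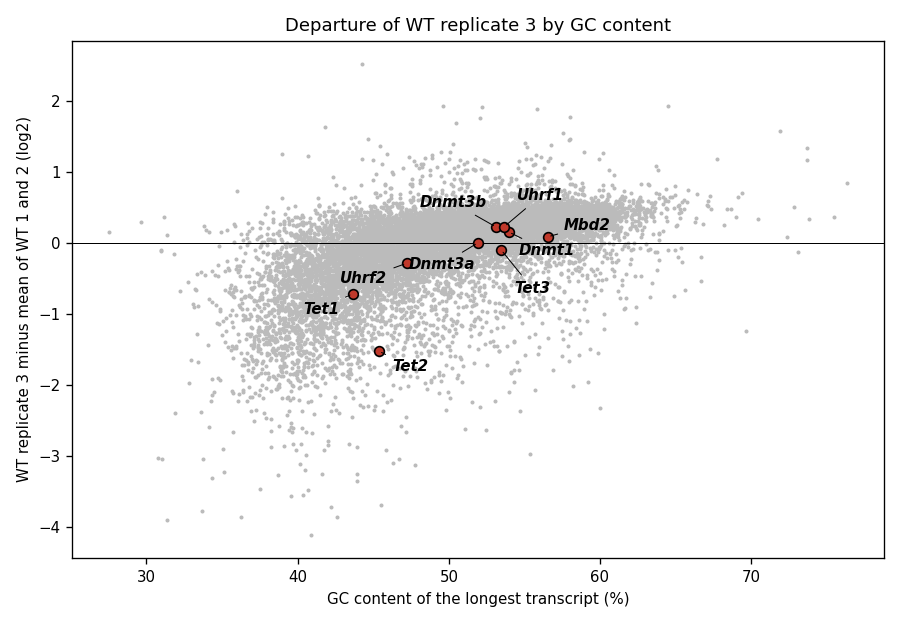
Each grey point is a tested gene, with the GC content of its longest transcript in percent on the x axis and the log2 value of WT replicate 3 minus the mean of WT replicates 1 and 2 on the y axis; red points are the 9 genes. Tet2 lies at -1.52, Tet1 at -0.71 and Uhrf1 at 0.23.

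Tet1, the eraser known from embryonic stem cells and from MLL-rearranged leukaemia, was the lowest of the 9, with 136, 128 and 110 in E531R replicates 1, 2 and 3, against 113, 97.6 and 63.8 in WT replicates 1, 2 and 3. The groups overlapped slightly and the test was not passed (log2 fold change 0.48, 95% interval -0.06 to 1.01; limma adjusted p = 0.196), with 71 to 196 reads behind each value. The log2 fold change was 0.24 without WT replicate 3 and 0.65 without WT replicate 1, and neither passed (limma adjusted p = 0.17 and 0.116). Per kb of exon Tet3 made up 72.0% ± 1.55 of the summed Tet level in E531R and 70.7% ± 10.3 in WT (SD, n = 3 each). The share of Tet2 was 25.8%, 27.3% and 24.3% in E531R replicates 1, 2 and 3, against 33.0%, 33.5% and 15.8% in WT replicates 1, 2 and 3 (exact permutation test, two-sided, p = 1). As with its level, only WT replicate 3 lay below the E531R libraries in Tet2 share.

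Mbd2, the methyl-CpG reader of NuRD, had 3277, 3232 and 3443 in E531R replicates 1, 2 and 3, against 3001, 3068 and 3218 in WT replicates 1, 2 and 3. The groups came close without overlapping, and the log2 fold change of 0.10 did not pass (95% interval -0.05 to 0.25; limma adjusted p = 0.338). It passed without WT replicate 3 and with limma array weights, at 0.13 in both (limma adjusted p = 0.0147 and 0.011). In all, the groups did not overlap in 4 of the 9 genes (Dnmt3a, Tet3 and Mbd2 higher, Dnmt3b lower), where 44.0% of all tested genes showed no overlap, 21.2% higher and 22.8% lower.

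**Figure D4:**
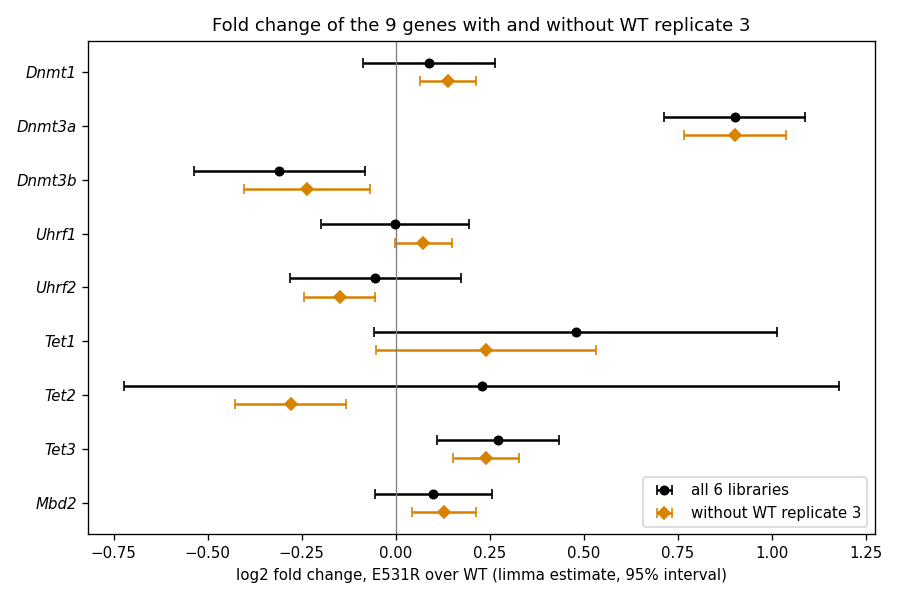
Log2 fold change of E531R over WT for the 9 genes with its 95% interval, from all 6 libraries (black circles) and without WT replicate 3 (orange diamonds). Dnmt3a stays at 0.90 in both, whereas Tet2 lies at 0.23 with all libraries and at -0.28 without that library.

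Per kb of annotated exon the mean level fell in the same order in both groups: Dnmt1, Uhrf1, Mbd2, Tet3, Uhrf2, Tet2, Dnmt3b, Dnmt3a and Tet1. Dnmt1 had 2361 ± 15.1 normalised reads per kb in E531R and 2226 ± 142 in WT, and Tet1 had 8.08 ± 0.871 in E531R and 5.92 ± 1.64 in WT (SD, n = 3 each). Dnmt3b and Dnmt3a were neighbours in that order and overlapped in E531R, at 57.6 to 61.0 and 53.4 to 61.4, but not in WT, at 70.0 to 81.7 and 30.6 to 31.1. Tet2 and Dnmt3b overlapped in WT alone, through WT replicate 3. All annotated exons of a gene were added for its length, so levels of genes with long or rarely used exons are understated.

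By the distance between log2 values centred over the 6 libraries, the 5 of 9766 genes with a mean of at least 100 nearest to Dnmt3a were Ikbke, Ccng2, Treml2, Slc28a2 and Lima1. They encode a kinase of innate immune signalling, an atypical cyclin, a receptor of the TREM family, a nucleoside transporter and an actin-binding protein. Root mean square distances ran from 0.033 for Ikbke to 0.071 for Lima1, and log2 fold changes from 0.82 to 0.91. That these fold changes resemble that of Dnmt3a follows from the choice of the genes by closeness to it. Ikbke had 1545, 1660 and 1518 in E531R replicates 1, 2 and 3, against 830, 843 and 830 in WT replicates 1, 2 and 3.

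Among proteins that work with the methyltransferases, 0 of 9 tested genes passed. These include Dnmt3l, a cofactor of the de novo enzymes, Hells, a remodeller that opens chromatin to them, and Usp7, a deubiquitinase of DNMT1 and UHRF1. The nearest to passing was 2810417H13Rik, the gene of the PCNA-binding protein PAF15, with 6815 ± 277 in E531R and 5370 ± 741 in WT (SD, n = 3 each; 0.35 on the log2 scale, limma adjusted p = 0.0711). Hells, like Tet2, was low in WT replicate 3, at 38.9% of the mean of the other WT libraries.

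In the base excision step after oxidation, 2 of 13 tested genes rose and 1 fell, all of them Gadd45 genes, stress-induced adaptors proposed to recruit repair enzymes to methylated DNA. Gadd45a averaged 515 ± 26.5 in E531R and 307 ± 12.6 in WT, and Gadd45g 49.3 ± 2.53 in E531R and 31.1 ± 4.90 in WT (SD, n = 3 each; log2 fold changes 0.75 and 0.65, limma adjusted p = 0.000975 and 0.0398). Gadd45b fell to 721 ± 31.7 in E531R, against 1045 ± 116 in WT (SD, n = 3 each; -0.53 on the log2 scale, limma adjusted p = 0.00979). Tdg, the glycosylase that removes oxidised methylcytosine, did not pass, at -0.12 on the log2 scale (limma adjusted p = 0.295).

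Of 6 tested Tet cofactor and partner genes 0 passed, with the isocitrate dehydrogenase gene Idh1, a source of the TET cosubstrate, at -0.20 (limma adjusted p = 0.0774). Cxxc4, a CXXC-domain gene that lies beside Tet2 and whose protein binds TET2, fell under the minimum mean, with 0 reads over the E531R libraries and 11 over the WT libraries. Methyl donor genes had 0 of 11 past the threshold, with a median log2 fold change of -0.17, which was -0.08 without WT replicate 3. Mat2a and Mat2b, which make the donor S-adenosylmethionine, had -0.17 and -0.19 (limma adjusted p = 0.0956 and 0.0848).

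Readers of methylated and unmethylated CpG had 0 of 13 higher and 1 lower. That gene was Zbtb4, a zinc finger protein that binds methylated CpG, with 93.1 ± 6.08 in E531R and 182 ± 23.4 in WT (SD, n = 3 each; -0.96 on the log2 scale, limma adjusted p = 0.00238). Mbd1, another methyl-CpG reader, had 0.21 and did not pass (limma adjusted p = 0.0567). Of 13 NuRD subunits, the complex that MBD2 joins, 1 fell: the remodeller Chd3, at 1865 ± 114 in E531R and 3141 ± 114 in WT (SD, n = 3 each; -0.75 on the log2 scale, limma adjusted p = 0.000513). Chd4, the more abundant remodeller of the complex in read count, had -0.05 (limma adjusted p = 0.609). Without WT replicate 3, 24.3% of all tested genes were called higher and 23.1% lower, against 10.4% and 9.53% with all libraries. Without it the counts of higher and lower genes were 2 and 0 for the methyltransferase partners, 3 and 5 for base excision and 0 and 4 for Tet cofactors. They were 0 and 4 for methyl donor genes, 3 and 3 for CpG readers, 2 and 4 for NuRD and 10 and 2 for S phase genes. Mbd1 and 2810417H13Rik then passed as higher (limma adjusted p = 0.000161 and 0.000129). Idh1, Mat2a and Mat2b passed as lower (limma adjusted p = 0.00083, 0.000684 and 0.000507).

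**Figure D5:**
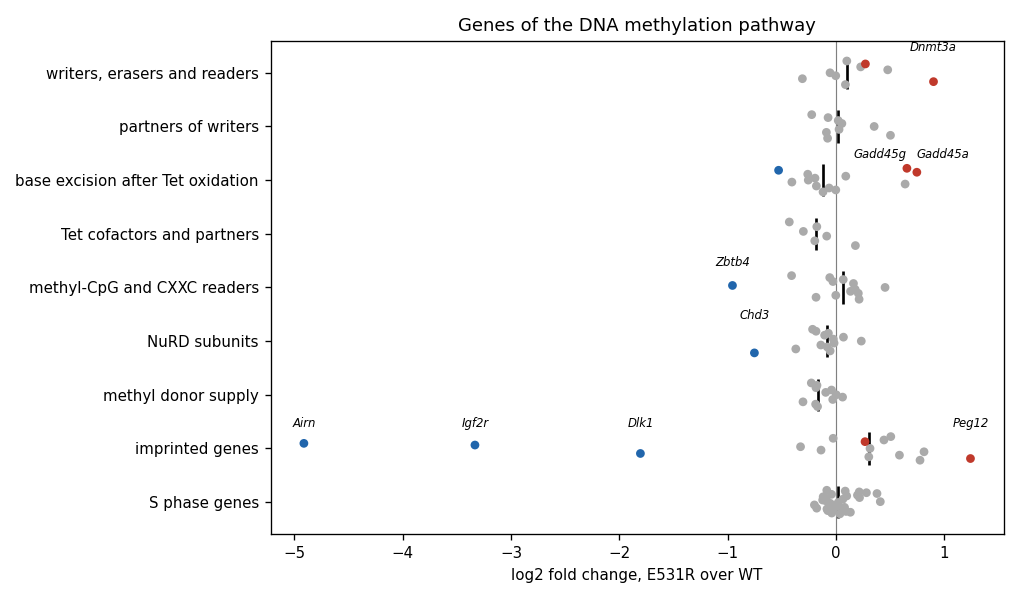
Each point is a tested gene of 1 of 9 lists (rows), placed by log2 fold change (E531R over WT); red points rose and blue points fell past the threshold, grey points did not pass, and black bars are list medians. Dnmt3a lies at 0.90, Zbtb4 at -0.96, Chd3 at -0.75 and Igf2r at -3.33.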

How the data were processed

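The submitters' processing notes name FastQC, cutadapt, HISAT2, SAMtools, featureCounts and DESeq2, and build GRCm38. No source used here states versions, annotation or strand use. The authors deposited values of unit signal for 6 libraries: gene read counts, each library divided by its own size factor. In every library 100% of values were whole multiples of what 1 read is worth, within 0.001 reads, so whole reads were recovered. The deposited table adds a log2 fold change from the authors with its standard error, a score and p-values. That fold change runs WT over E531R; here its sign is turned. Size factors cannot show a shift shared by all genes. Without a known strand setting, antisense and overlapping genes are uncertain.

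The main test was limma 3.58.1 (R 4.3.3) with its trend option, run on log2(value + 1) for the 12991 genes whose mean was at least 10. It was two-sided, without covariate, with Benjamini-Hochberg adjustment over all genes at 0.05. Log2 fold changes are on that scale, which understates changes of low genes, whereas folds and means come from unlogged values. As an alternative on the recovered reads, edgeR 4.0.16 called 1393 genes higher and 1251 lower, and DESeq2 1.42.0 called 1372 and 1234. The limma test was also run on simulated data with known changes. Those data held no library-wide departure like that of WT replicate 3, so they cannot show how the test does under one. Shares used an exact permutation test. GENCODE M21 (GRCm38) gave positions, exon lengths and GC content, and RefSeq (GRCm38.p6) the promoter windows.

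All 9 genes are described, with up to 4 genes of the smallest adjusted p of other lists. A few more were named after their values were seen, among them Dnmt3l, Hells, Usp7, Tdg, Chd4 and Cxxc4. The genes, lists and tests were chosen with earlier results of these data known. Reads carried no molecular identifiers that the sources name, so read numbers bear on counting error only.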

Additional observations from a re-analysis of the deposited data

How the results depend on the processing

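Dnmt3a kept its direction and call in all 18 alternatives (log2 fold change 0.86 to 0.96, highest adjusted p 0.00439). Of the 9 genes 2 were called higher and 0 lower. With no filter on low values 1 was called higher (all genes: 5.88% higher, 5.35% lower), with upper-quartile rescaling 1 higher and 1, Dnmt3b, lower (9.56%, 11.1%), and with the replicate number as a block 1 higher (9.08%, 8.17%). Array weights called Dnmt1, Dnmt3a, Tet3 and Mbd2, 4 in all, higher and Dnmt3b, Uhrf2 and Tet2, 3 in all, lower (26.4%, 25.1%). Removal of the GC and length trend, added after the data were seen, called 1, Dnmt3b, lower (15.4%, 15.8%). Leaving out each library in turn gave 1 to 4 higher and 0 to 3 lower, and over all genes 819 to 3159 higher and 746 to 2999 lower. Array weights called 3432 genes higher and 3266 lower, and removal of the GC and length trend 2006 higher and 2053 lower. Leaving out each library gave Tet2 a log2 fold change of -0.28 (without WT replicate 3) to 0.49, and array weights gave -0.24. Uhrf1 turned to 0.0022 with DESeq2, 0.0035 with edgeR, 0.0096 with voom, 0.0073 with TMM, 0.025 with the GC and length trend removed, 0.069 with array weights, and leaving out each library gave -0.047 to 0.073. Leaving out each library gave Uhrf2 -0.15 to 0.0075. It gave the E531R minus WT difference in the Tet2 share -7.44 to 1.40 percentage points and that in the Tet3 share -1.75 to 7.22. The cause of these changes was not tested.

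The deviations of same-numbered libraries correlated at 0.0017, 0.19 and 0.24 for numbers 1, 2 and 3. Those of differently numbered libraries correlated at -0.23 to 0.18. With 3 libraries a group these values cannot settle if replicate numbers pair the libraries. With the replicate number as a block, Tet3 had an adjusted p of 0.0647 and 1179 genes were higher and 1062 lower. No scaling moved the median of all tested genes by over 0.1. Tet1, with 71 to 196 reads a library, has the least depth of the 9.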

Other observations

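Genes that are silenced by promoter methylation outside the germline were mostly at or near 0 in both groups. Of 23 listed germline genes 11 had 0 reads in every library, among them Sycp1, Mael and Stk31, and 2 could be tested, Tdrkh and Piwil2, at 0.45 and 0.03 on the log2 scale (limma adjusted p = 0.158 and 0.924), neither past the threshold. Dazl, a germ cell RNA-binding protein, had normalised read counts of at most 1.95 in E531R and 0.787 in WT libraries. Ddx4, a germ cell RNA helicase, had 2.78, 2.92 and 0.973 in E531R replicates 1, 2 and 3, against 9.58, 14.9 and 7.09 in WT replicates 1, 2 and 3, under the minimum mean for testing. Dazl and Ddx4 were named after their values were seen.

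Imprinted genes, whose expression depends on parental methylation, had 2 higher and 3 lower of 15 tested, and without WT replicate 3 they had 3 and 5. Over all tested genes 10.4% were higher and 9.53% lower, and 24.3% and 23.1% without WT replicate 3. Igf2r, the mannose-6-phosphate and IGF2 receptor, averaged 579 ± 39.3 in E531R and 5834 ± 73.2 in WT (SD, n = 3 each; -3.33 on the log2 scale, limma adjusted p = 1.44e-06), and Airn, the antisense RNA that overlaps it, averaged 0.556 ± 0.501 in E531R and 46.5 ± 17.2 in WT. Strand use in counting is not given, so reads of these overlapping genes cannot be told apart. Dlk1 fell to 60.3 ± 32.1 in E531R, against 198 ± 34.5 in WT, and Peg12 averaged 64.6 ± 8.72 in E531R and 27.4 ± 8.14 in WT (SD, n = 3 each; limma adjusted p = 0.0106 and 0.0134). DNA methylation itself was not measured.

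The genes nearest to Tet2 in pattern over the 6 libraries were 4932438A13Rik, 2700099C18Rik, Ankrd26, Uty and Zmym5, a list chosen after the Tet2 values were seen. Each was lowest in WT replicate 3, which follows from their choice by closeness to Tet2. In 4932438A13Rik the values were 2424, 2689 and 2295 in E531R replicates 1, 2 and 3, against 2948, 2817 and 1023 in WT replicates 1, 2 and 3.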
